A study of Zea mays with 24 samples.

Results

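Transcripts of the GS/GOGAT cycle, the pair of reactions that bring ammonium into amino acids, were followed in maize source leaves after cold nights or with little nitrate or phosphate in the nutrient solution. The study's list of pathway transcripts holds 7 entries under this heading, and each was looked up by its probe identifier among the 41780 transcript probes of the array. They were 1 chloroplastic glutamine synthetase (GRMZM2G098290, probe OptiV1C08907), 4 cytosolic glutamine synthetases (GRMZM2G024104, OptiV1C02559; GRMZM2G050514, OptiV1C13442; GRMZM2G036464, OptiV1C10337; GRMZM2G386046, OptiV1N39637), 1 NADH-dependent glutamate synthase (GRMZM2G085078, OptiV1C13836) and 1 entry described as glutamate synthase with no cofactor named (GRMZM2G036609, OptiV1C17391). All 7 were well above background on each of the 24 arrays and none was saturated, so every member passed the filter on dim probes.

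Glutamine synthetase (GS) joins ammonium to glutamate and forms glutamine. Glutamate synthase (GOGAT) passes the amide nitrogen of glutamine to 2-oxoglutarate and forms glutamate, with reduced ferredoxin or NADH as the electron donor. In leaves the chloroplastic GS takes up ammonium from nitrate reduction and from photorespiration, while cytosolic GS forms are known for making glutamine in the cytosol of vascular and other cells, also for transport out of ageing leaves.

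RNA came from the mid-part of the source leaf lamina of the inbred line B73, homogenised as a whole, with 1 one-colour Agilent array for each of 4 biological replicates in 6 groups. Low T plants had nights of 4 °C and control T plants nights of 20 °C, with days of 28 °C in both, and leaf 5 was taken at day 20. Low N plants were fed 0.15 mM KNO3 and control N plants 15 mM KNO3, low P plants 0.1 mM KH2PO4 and control P plants 0.5 mM KH2PO4, and from all of these leaf 6 was taken at day 30. Outside the factor that was lowered, the nutrient solution held 15 mM KNO3 and 0.5 mM KH2PO4 in every group, potassium was balanced with KCl and nights in the nutrient experiments were at 20 °C. The low T and low N experiments were grown in successive sets and the low P experiment in a single set, and in the low T experiment the cold nights were applied in 1 of a pair of chambers, so that chamber and treatment cannot be told apart there. In the low P experiment each group had a slide to itself, and there slide and treatment cannot be told apart.

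Signals are log2 intensities from which the 75th percentile of the array's transcript probes was taken off, so that a value of 0 is a signal at that percentile. Values of different probes were not compared as levels, since probes differ in how well they bind. On 22 arrays 25780 to 33163 transcript probes were well above background, while control T replicate 3 had 35451 and low P replicate 1 had 36966. All 26 photosystem transcripts of the study's list, 2 mesophyll and 4 bundle sheath markers were well above background on all 24 arrays, as were 2 of the 4 senescence markers that are no members.

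Chloroplastic GS (GRMZM2G098290) had its highest signals in the low T experiment. The log2 signals were 5.04, 4.97, 5.12 and 5.41 in low T leaves, against 4.45, 4.08, 4.65 and 4.51 in control T leaves. All 4 low T arrays lay above all 4 control T arrays. In low N leaves the signals were 3.48, 3.22, 2.70 and 2.74, against 3.47, 2.73, 1.82 and 1.78 in control N leaves. In both groups of this experiment replicates 1 and 2 were higher than replicates 3 and 4, and the groups overlapped. In low P leaves the signals were 1.86, 1.87, 3.08 and 2.08, against 1.19, 2.55, 2.41 and 0.77 in control P leaves. These groups overlapped as well, and the control P arrays spread over more than a log2 unit. The mean was higher under stress in each experiment, with log2 changes of 0.71 under low T, 0.58 under low N and 0.49 under low P, but only low T passed the test given further on.

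The cytosolic GS GRMZM2G024104 went in opposite directions under low T and low P. Its log2 signals were 4.12, 4.19, 3.88 and 4.07 in low T leaves, against 3.18, 2.97, 2.78 and 3.32 in control T leaves. No low T array overlapped with a control T array. In low N leaves they were 2.41, 2.45, 2.38 and 2.53, against 2.83, 2.59, 2.31 and 2.61 in control N leaves, and the low N arrays fell within the control range. In low P leaves they were 2.13, 2.12, 2.02 and 2.05, against 2.51, 2.62, 2.55 and 2.30 in control P leaves. All 4 low P arrays were below all 4 control P arrays.

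The cytosolic GS GRMZM2G050514 was lower under low P. Its log2 signals were -0.68, -0.41, -0.47 and -0.79 in low P leaves, against 0.56, 0.70, 0.45 and 0.07 in control P leaves. The groups did not overlap, and low P was the only group with all arrays below 0. In low T leaves the signals ran from 0.07 to 0.38, within the control T range of -0.06 to 0.84. In low N leaves they ran from -0.58 to 0.43, with low N replicate 4 far below the others, against 0.35 to 0.76 in control N leaves.

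The cytosolic GS GRMZM2G036464 had SDs within groups of 0.07 to 0.15. Its log2 signals were 1.15, 1.34, 1.23 and 1.18 in low P leaves, against 1.67, 1.52, 1.53 and 1.78 in control P leaves. The low P arrays lay below all control P arrays. In low T leaves it ran from 1.16 to 1.31, against 0.85 to 1.19 in control T leaves, and in low N leaves from 2.12 to 2.36, against 1.83 to 2.15 in control N leaves. Both of these pairs of groups overlapped in their ranges.

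The cytosolic GS GRMZM2G386046 was the dimmest member, with intensities between 32.8 and 149. Its log2 signals were -3.49, -3.28, -4.40 and -4.40 in low T leaves, against -2.89, -3.04, -2.98 and -3.55 in control T leaves. In low P leaves they were -2.57, -3.77, -3.69 and -3.65, against -3.44, -3.47, -3.54 and -3.31 in control P leaves. The high low P value came from replicate 1, 1 of the 2 arrays that stood apart, and the other 3 low P arrays lay below all control P arrays. In low N leaves the signals ran from -3.77 to -3.23, against -3.45 to -3.20 in control N leaves, and the ranges overlapped.

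The NADH-dependent GOGAT GRMZM2G085078 was higher on every stressed array than on any array of its own control, in all 3 experiments. Its log2 signals were 2.95, 2.86, 3.18 and 3.01 in low T leaves, against 1.89, 1.92, 2.00 and 1.94 in control T leaves. In low N leaves they were 1.81, 1.65, 1.49 and 1.43, against 0.95, 0.92, 0.74 and 0.99 in control N leaves. In low P leaves they were 1.73, 1.78, 1.81 and 1.98, against 1.25, 1.52, 1.25 and 1.12 in control P leaves. The distance between the groups was widest under low T, where the lowest low T array (2.86) stood well above the highest control T array (2.00). The share of all tested probes without overlap in all 3 experiments was not taken.

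The other GOGAT, GRMZM2G036609, did not share this pattern. Its log2 signals were 3.75, 3.95, 3.72 and 3.60 in low N leaves, against 4.23, 4.26, 4.43 and 4.31 in control N leaves. All low N arrays lay below all control N arrays. In low T leaves the signals were 4.22, 4.11, 4.53 and 4.56, against 4.18, 4.06, 4.71 and 4.95 in control T leaves, and both groups split into lower replicates 1 and 2 and higher replicates 3 and 4. In low P leaves the signals stayed between 4.06 and 4.15, inside the control P range of 3.97 to 4.71.

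**Figure D1:**
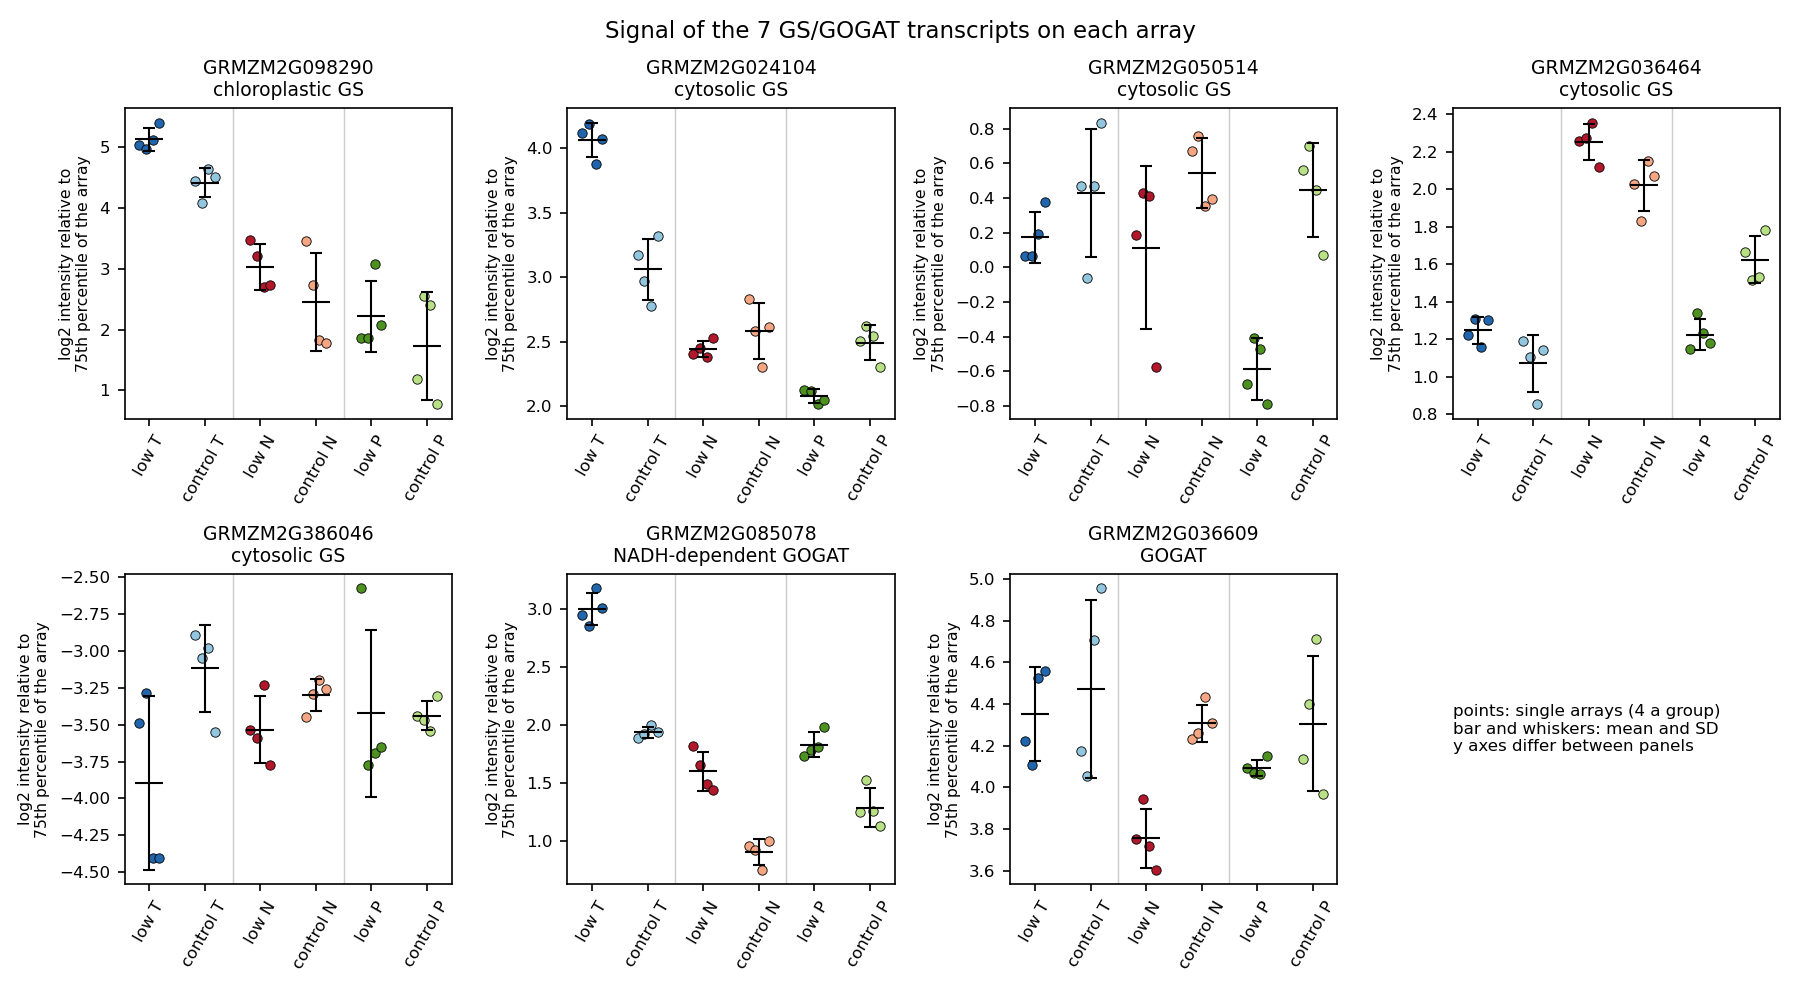
Log2 intensity minus the array's 75th percentile (y axis, its range differs between panels) for the 7 transcripts in the 6 groups (x axis); points are single arrays, bars and whiskers the mean and SD of 4 arrays. The NADH-dependent GOGAT shows no overlap between stress and control in any of the 3 experiments, while chloroplastic GS spreads from 0.77 to 2.55 within control P alone.

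For every stress, limma was run against the matching control over 31507 tested probes. Called here means more than 2-fold apart with an adjusted p (Benjamini-Hochberg) below 0.05, while passing the test asks for that p alone. Under low T, 2 of the 7 members were called, both higher, where 14.4% of all tested probes were called and 7.25% were called higher. The adjusted p alone was passed by 3 members, all higher, beside 31.1% of all probes, or 15.2% in the higher direction. The 3 that passed were also those whose groups did not overlap, beside 35.3% of all probes without overlap. NADH-dependent GOGAT GRMZM2G085078 was 2.09-fold higher (log2 change 1.06 ± 0.12, SE, n = 4 arrays per group; limma adjusted p = 0.000649). Cytosolic GS GRMZM2G024104 was 2.00-fold higher (1.00 ± 0.15, SE; limma adjusted p = 0.00228), just past the limit of 2. Chloroplastic GS was higher by 0.71 ± 0.16 (SE; limma adjusted p = 0.0133), which is under the fold limit. Without control T replicate 3 these log2 changes were 1.08, 0.91 and 0.79, and GRMZM2G024104 was then under the fold limit, as it was without low T replicate 1 (0.98), low T replicate 2 (0.96) or control T replicate 2 (0.97). The adjusted p of chloroplastic GS was 0.106 with normexp background correction and 0.152 in 1 fit over all 24 arrays, so that it did not pass under either.

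Within each of the 2 slides that held low T and control T arrays side by side, the changes kept their size. NADH-dependent GOGAT was higher in low T by 1.00 and 1.13, GRMZM2G024104 by 1.08 and 0.93, and chloroplastic GS by 0.74 and 0.69 on the log2 scale (2 against 2 arrays each, no test). Cytosolic GS GRMZM2G386046 was lower in low T by a log2 of -0.78 ± 0.30 (SE; limma adjusted p = 0.0810). Taking the slide as a block gave it a limma adjusted p of 0.0163 and the replicate block 0.0421, and on the slides its log2 differences were -0.42 and -1.14. The remaining members did not pass: GRMZM2G050514 had a log2 change of -0.25 (95% confidence interval -0.70 to 0.20), GRMZM2G036464 of 0.18 (-0.10 to 0.45) and GOGAT GRMZM2G036609 of -0.12 (-0.64 to 0.40).

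Under low N, 0 of the 7 members were called by limma, beside 5.8% of all tested probes, and 2 passed at an unadjusted p under 0.05 and likewise in the exact permutation test. The same 2, both of them GOGAT forms, passed the adjusted p alone, beside 11.1% of all probes, and were without overlap between groups, beside 21.3%. At the unadjusted p and in the exact test the share of all probes was not taken, so those counts only describe the members. NADH-dependent GOGAT was 1.62-fold higher in low N leaves (0.70 ± 0.13, SE, n = 4 arrays per group; limma adjusted p = 0.0167), and GOGAT GRMZM2G036609 was lower by a log2 of -0.55 ± 0.13 (SE; limma adjusted p = 0.0285). On the 1 slide that held both groups, with 2 low N arrays and 1 control N array, these differences were 0.72 and -0.77. All other slides of this experiment held arrays of a single group, so that slide and treatment were partly mixed. Arrays of the same slide had an estimated correlation of 0.69, which the main fit did not take into account. The fall of GRMZM2G036609 was close to the limit: leaving out any 1 of the 8 arrays gave an adjusted p of 0.0480 to 0.0793, and scaling on the spike-in probes that were above background on all arrays gave a change of 0.0188. Nor did it pass with quantile normalization (-0.40, limma adjusted p = 0.126), without the filter on probes (limma adjusted p = 0.0619) or on all spike-in probes (-0.0217, limma adjusted p = 0.975). The adjusted p of the NADH form was 0.0534 without low N replicate 1 and 0.0564 without low N replicate 2, and with scaling on all spike-in probes its change was 1.23 (limma adjusted p = 0.0896). None of the 5 GS forms passed. Chloroplastic GS had a log2 change of 0.58 (-0.31 to 1.48), which does not leave out a change of more than 2-fold. With slide as a random block it was 0.82 (limma adjusted p = 0.0982). The cytosolic forms had changes of -0.14 (-0.46 to 0.18) for GRMZM2G024104, -0.43 (-0.98 to 0.12) for GRMZM2G050514, 0.23 (-0.06 to 0.52) for GRMZM2G036464 and -0.23 (-0.57 to 0.11) for GRMZM2G386046.

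Under low P, 1 of the 7 members was called, beside 11.2% of all tested probes, and it was lower, as were 3.01% of all probes. The adjusted p alone was passed by 4 members, 3 of them lower and 1 higher, beside 41.1% of all probes, 20.2% lower and 20.9% higher. The same 4 had no overlap between groups, beside 42.5% of all probes. Cytosolic GS GRMZM2G050514 was lower by a log2 of -1.03 ± 0.15 (SE, n = 4 arrays per group; limma adjusted p = 0.00135), which is 0.489 of the control P signal. It was just under the fold limit without low P replicate 4 (-0.96), control P replicate 1 (-0.99) or control P replicate 2 (-0.95), while without low P replicate 1 it was still called. Its call was also lost with normexp background correction (-0.95, limma adjusted p = 0.0103) and with scaling on all spike-in probes (-0.80, limma adjusted p = 0.0501) or on those above background on all arrays (-0.52, limma adjusted p = 0.117). Cytosolic GS GRMZM2G024104 was lower by -0.42 ± 0.09 (SE; limma adjusted p = 0.00755) and GRMZM2G036464 by -0.40 ± 0.09 (SE; limma adjusted p = 0.00937), but neither passed with normexp (limma adjusted p = 0.401 and 0.0907), and with scaling on the spike-in probes above background on all arrays the changes were 0.10 and 0.12. NADH-dependent GOGAT was 1.46-fold higher (0.54 ± 0.11, SE, limma adjusted p = 0.00505), and with normexp it passed narrowly (0.55, limma adjusted p = 0.0487). Without low P replicate 1 these 3 changes were -0.43, -0.37 and 0.57, and all 3 still passed.

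The other 3 members did not pass under low P. Chloroplastic GS had a log2 change of 0.49 (-0.57 to 1.55), GOGAT GRMZM2G036609 of -0.21 (-0.57 to 0.14) and cytosolic GS GRMZM2G386046 of 0.0146 (-0.58 to 0.60). Without low P replicate 1 the change of GRMZM2G386046 was -0.27 (limma adjusted p = 0.0465), so that 1 array decided its side of the limit, and the sign was also negative with normexp (-0.38) and with quantile normalization (-0.18).

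**Figure D2:**
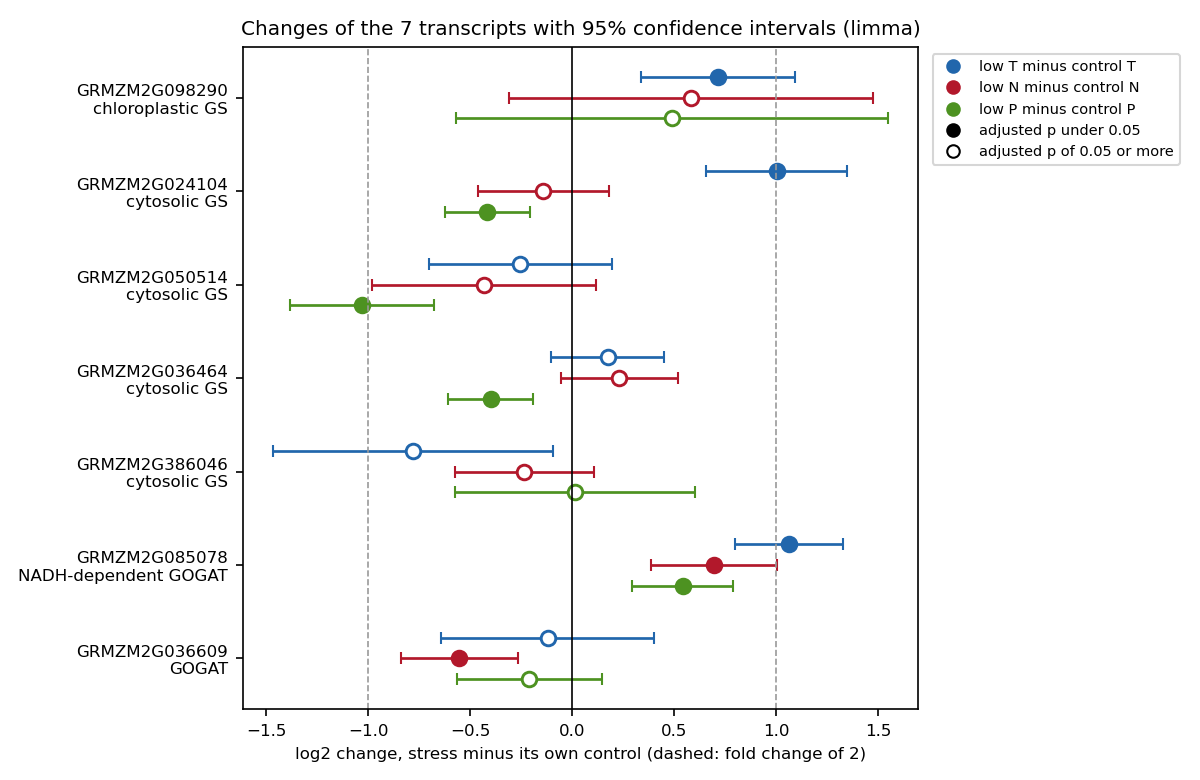
Log2 change of each of the 7 transcripts (rows) under the 3 stresses against their own controls (x axis), with 95% confidence intervals from limma; filled points have an adjusted p under 0.05 and dashed lines mark a fold change of 2. Among the 7, only the NADH-dependent GOGAT has filled points in all 3 experiments, at 1.06, 0.70 and 0.54. The share of all tested probes passing in all 3 was not taken.

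A second probe of the chloroplastic GS locus, OptiV1S23788, was known to be there because the study's table of changed transcripts lists it under low P, so its change there is given as a description. It was dim, with 3 of 4 control N arrays well above background and all arrays of the other groups. Its log2 signals were -3.03, -3.51, -4.38 and -4.12 in low P leaves, against -5.13, -5.14, -4.69 and -5.10 in control P leaves, without overlap, and the low P arrays other than replicate 1 also lay above all control P arrays. The log2 change was 1.26 ± 0.29 (SE; limma adjusted p = 0.00948) under low P, 0.53 (limma adjusted p = 0.158) under low N and 0.46 (limma adjusted p = 0.624) under low T. The low T value was set by 1 array, since control T replicate 3 stood at -1.91 and the other control T arrays between -4.94 and -4.40. Without that array the low T change was 1.17 ± 0.33 (SE; limma adjusted p = 0.0345). Without low P replicate 1 the low P change was 1.012 ± 0.22 (SE; limma adjusted p = 0.00933). Over the 24 arrays, with the mean of each experiment subtracted, the 2 probes of this locus correlated at 0.17.

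Whether a member answered differently to different stresses was tested as the difference between 2 changes in 1 limma fit over all 24 arrays. For low T against low N, 1 of the 7 members passed, beside 22.5% of all probes. This was GRMZM2G024104, whose change under low T exceeded that under low N by 1.14 ± 0.17 (SE; limma adjusted p = 0.000106). For low T against low P, 4 members passed, beside 39% of all probes, and all 4 had the more positive change under low T, a direction in which 18% of all tested probes passed. The differences were 1.42 ± 0.17 for GRMZM2G024104 (SE; limma adjusted p = 2.72e-06), 0.78 ± 0.29 for GRMZM2G050514 (SE; limma adjusted p = 0.0397), 0.57 ± 0.14 for GRMZM2G036464 (SE; limma adjusted p = 0.00304) and 0.52 ± 0.15 for the NADH-dependent GOGAT (SE; limma adjusted p = 0.0105). For low N against low P, 1 member passed, beside 19.9% of all probes. It was GRMZM2G036464, with a difference of 0.63 ± 0.14 (SE; limma adjusted p = 0.00346). The difference of GRMZM2G050514 no longer passed without 10 of the 24 arrays, each left out singly, among them control T replicate 3 (limma adjusted p = 0.0509) and low P replicate 1 (limma adjusted p = 0.0664), while the other 5 differences passed without either of these. With normexp only the GRMZM2G024104 differences of low T from low N and from low P still passed, and with scaling on the spike-in probes above background on all arrays only its difference between low T and low P. Chloroplastic GS passed in none of the 3 contrasts, with intervals from -1.01 to 1.28 (low T against low N), -0.92 to 1.37 (low T against low P) and -1.05 to 1.24 (low N against low P). These intervals are wide enough to hold differences of about 2-fold either way.

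The spike-in probes put the whole signal of an array on another scale. Over all tested probes the median log2 change was -0.07 under low T, -0.04 under low N and 0.03 under low P with the 75th percentile, and 0.15, 0.53 and 0.55 with the 7 spike-in probes that were above background on all arrays. Both scalings take 1 constant off each array. A change set against its median is therefore nearly the same on either scale by construction, and this sameness tests nothing. NADH-dependent GOGAT lay above the median of all probes by 1.13 under low T, 0.74 under low N and 0.51 under low P, GRMZM2G050514 lay below it by a log2 of -1.06 under low P, and GRMZM2G036609 by -0.51 under low N, each on the spike-in scale. On the plain scale NADH-dependent GOGAT and chloroplastic GS were higher in all 3 stresses under each of 5 scalings, and GRMZM2G050514 was lower under low P in each.

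**Figure D3:**
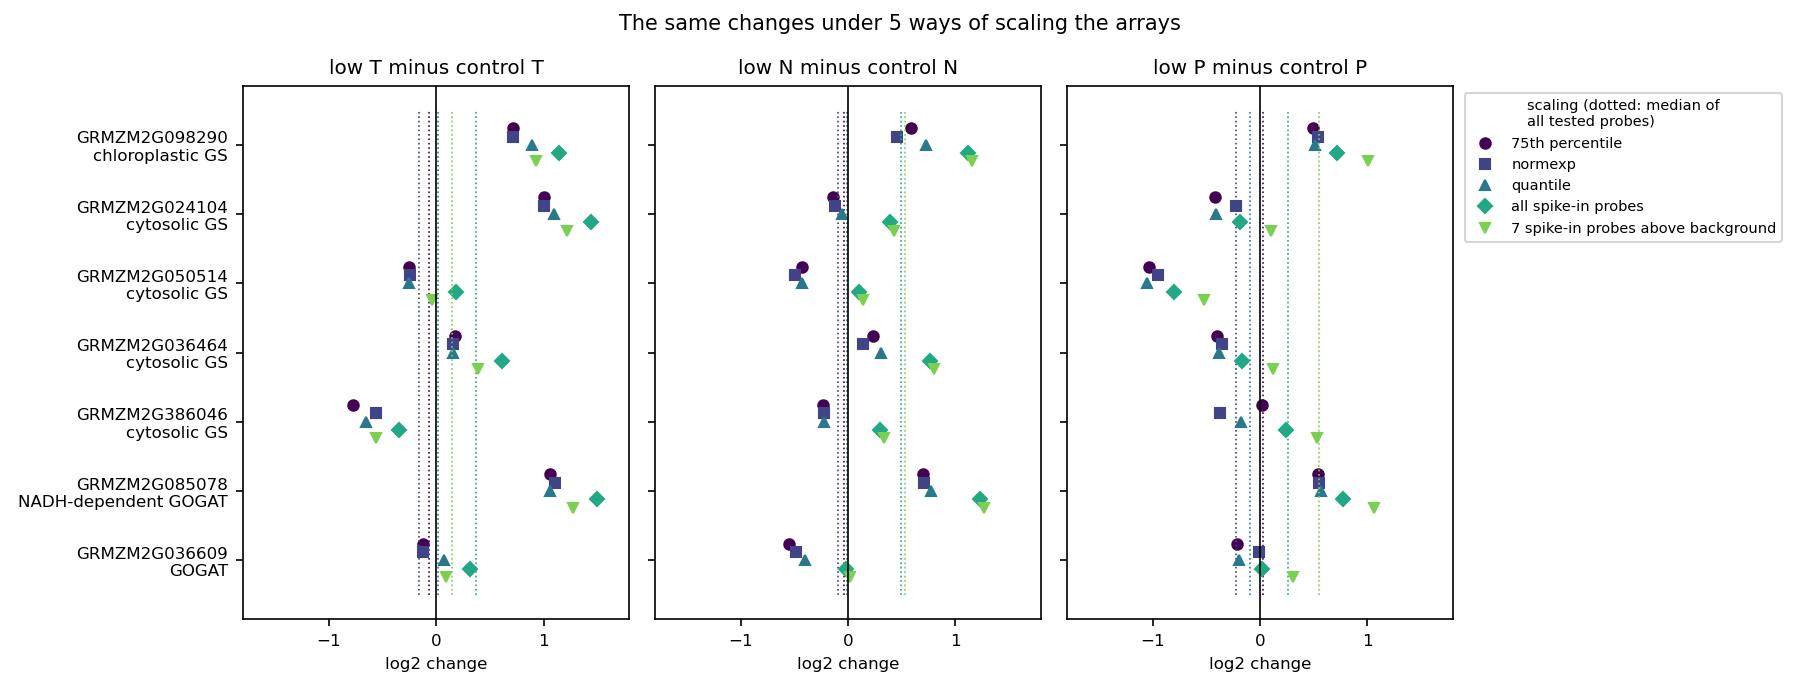
Log2 change of each transcript (rows) under each stress (panels) with 5 ways of scaling the arrays; dotted lines give the median change of all tested probes with the same scaling. The spike-in scalings shift members and medians together to the right, and NADH-dependent GOGAT stays right of 0 in every panel.

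Differences between 2 probes on the same array do not depend on the scaling of the array, so the balance between isoforms was also followed in this way, for 5 pairs and 3 stresses. These 15 comparisons were chosen after the values were seen. The NADH-dependent GOGAT gained on the other GOGAT by a log2 of 1.18 under low T, 1.25 under low N and 0.75 under low P, and stressed and control arrays did not overlap in any of the 3 experiments. Chloroplastic GS gained on the cytosolic GRMZM2G050514 by 0.97 under low T and 1.52 under low P without overlap, while under low N the arrays overlapped. It gained on GRMZM2G386046 by 1.49 under low T without overlap. Against GRMZM2G024104 its balance was -0.29 under low T, 0.72 under low N and 0.91 under low P, and against GRMZM2G036464 it was 0.54 with low T, 0.35 with low N and 0.89 with low P, all 6 with overlap. Each of the 6 comparisons without overlap had a two-sided exact permutation p of 0.0286, the smallest that 4 against 4 arrays can give, and adjusted over the 15 comparisons this was 0.0715, which misses the limit. Among the 9 others the exact p was 0.0571 to 0.543.

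**Figure D4:**
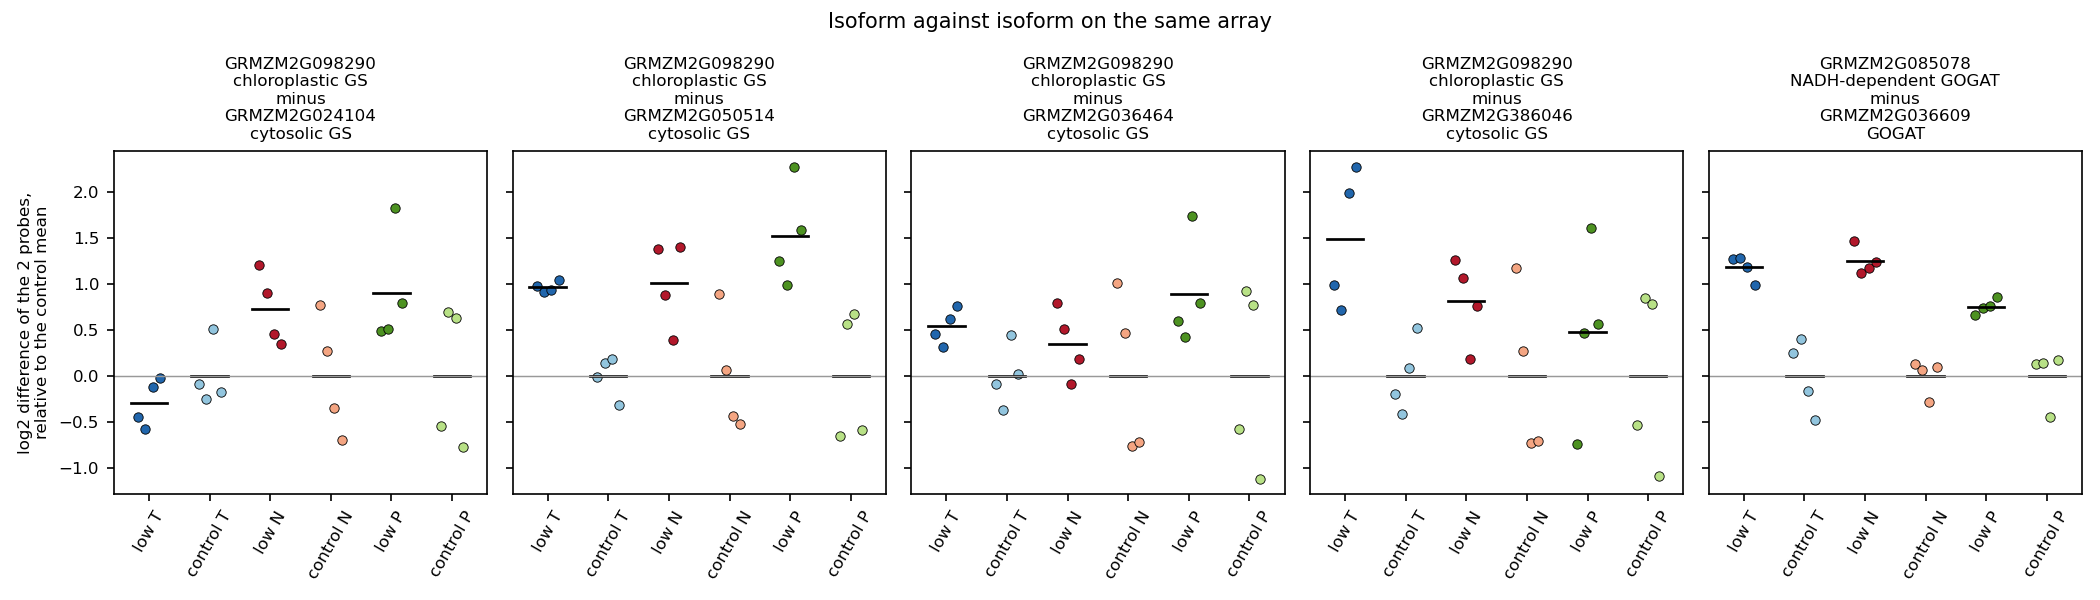
Log2 difference of 2 probes on the same array, relative to the mean of the control group of the experiment (y axis), for 5 pairs of isoforms (panels) in 6 groups (x axis); points are single arrays and bars the group means. In the right panel all 12 stressed arrays lie above the control arrays of their own experiment.

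In unstressed leaves the members differed mainly between the low T experiment, with leaf 5 at day 20 in its own chambers, and the nutrient experiments, with leaf 6 at day 30. Leaf, age, chamber and experiment cannot be told apart here. Chloroplastic GS was 3.92-fold higher in control T than in control N leaves (log2 difference 1.97 ± 0.39, SE; limma adjusted p = 0.000417) and 6.46-fold higher in control T than in control P leaves (2.69 ± 0.39, SE; limma adjusted p = 1.71e-05). NADH-dependent GOGAT was 2.05-fold higher in control T than in control N leaves (1.04 ± 0.11, SE; limma adjusted p = 4.41e-07) and 1.57-fold higher than in control P leaves, which is under the fold limit. Its difference from control N was under the fold limit as well with normexp (0.82), with quantile normalization (0.93) and without control N replicate 3 (0.98). GRMZM2G036464 went the other way, with a log2 difference of -0.95 ± 0.10 between control T and control N leaves (SE; limma adjusted p = 4.78e-07) and of -0.55 ± 0.10 between control T and control P leaves (SE; limma adjusted p = 0.000172). The first of these was past the fold limit, and so called, with quantile normalization (-1.02) and without control N replicate 2 (-1.012). GRMZM2G024104 was higher in control T than in control N leaves by 0.48 (limma adjusted p = 0.00368) and than in control P leaves by 0.57 (limma adjusted p = 0.000835), but the difference from control N did not pass with quantile normalization (limma adjusted p = 0.0772) or in a fit of the 8 control T and control N arrays alone (limma adjusted p = 0.0727). Without control T replicate 3 the differences of control T from control N and control P were 1.90 and 2.62 for chloroplastic GS, 1.014 and 0.63 for NADH-dependent GOGAT, -0.88 and -0.48 for GRMZM2G036464 and 0.57 and 0.66 for GRMZM2G024104. So 2 of 7 members were called between control T and control N, beside 16.3% of all probes, and 1 between control T and control P, beside 18.8%. Between control N and control P 0 members were called by limma, beside 0.743% of all probes, with 2 at an unadjusted p under 0.05 and the same number in the exact permutation test. The share of all probes at the unadjusted p and in the exact test was not taken. GRMZM2G036464 was higher in control N than in control P leaves by 0.40 (limma adjusted p = 0.0410), which did not pass with normexp (limma adjusted p = 0.534) or without any 1 of 6 of the 8 arrays. NADH-dependent GOGAT had a log2 difference of -0.38 (-0.61 to -0.16) between control N and control P leaves, just short of the limit (limma adjusted p = 0.0591).

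Ordered by mean signal, chloroplastic GS ran low T, control T, low N, control N, low P and control P, where low T and control T stood clear and the 4 others overlapped with the next in order. For GRMZM2G024104 the first and the last place, low T and low P, stood clear of their neighbours, and the 4 groups between overlapped with the next in order. For NADH-dependent GOGAT low T stood clear at the top and control N at the bottom. For GRMZM2G036464 low N and control N led and overlapped with each other, control P stood clear in the middle, and low T, low P and control T overlapped below. For GRMZM2G050514 and GRMZM2G386046 each group overlapped with the next in order, and for GRMZM2G036609 only low N, the lowest, stood clear.

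Beside the GS/GOGAT members stand other nitrogen-related lists of the study's pathway table, of which nitrate reduction had the lowest medians. The median log2 change of the 7 members was 0.18 in low T, -0.14 in low N and -0.21 in low P leaves. The nitrate reduction list holds nitrate reductases, a ferredoxin-nitrite reductase and a uroporphyrin III methyltransferase (GRMZM2G000739). Of its 6 transcripts all 6 were called lower in the low N and in the low P experiment and 2 in the low T experiment. Their median log2 changes were -0.85 in low T, -3.13 in low N and -1.86 in low P leaves. Beside these counts, 5.8% of all tested probes were called under low N, 11.2% under low P (3.01% lower) and 14.4% under low T. The ferredoxin-nitrite reductase GRMZM2G079381 had log2 changes of -0.53 (limma adjusted p = 0.126) under low T, -2.08 (limma adjusted p = 0.000491) with low N and -1.67 (limma adjusted p = 0.000426) with low P. Of 8 nitrate transport transcripts 2 were called lower in low T, 4 in low N and 2 in low P leaves, where 1 was called higher. The shares of all tested probes called in either direction were 14.4%, 5.8% and 11.2%. Of 20 photorespiration transcripts 1 was called in each direction under low T, 1 lower under low N and 2 lower under low P, or 2, 1 and 2 of 20 beside 14.4%, 5.8% and 11.2% of all tested probes, and their medians were -0.16, -0.15 and -0.47. In low P leaves 11 of the 20 were lower and 1 higher at the adjusted p alone, beside 20.2% and 20.9% of all probes, and 18 of 20 had a negative change, 10 of 20 with scaling on the spike-in probes above background on all arrays. Of 16 transcripts of aspartate, asparagine and alanine metabolism 1 was called higher and 2 lower under low T, 3 lower under low N, and 2 higher and 4 lower under low P, beside the same 14.4%, 5.8% and 11.2% of all tested probes.

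**Figure D5:**
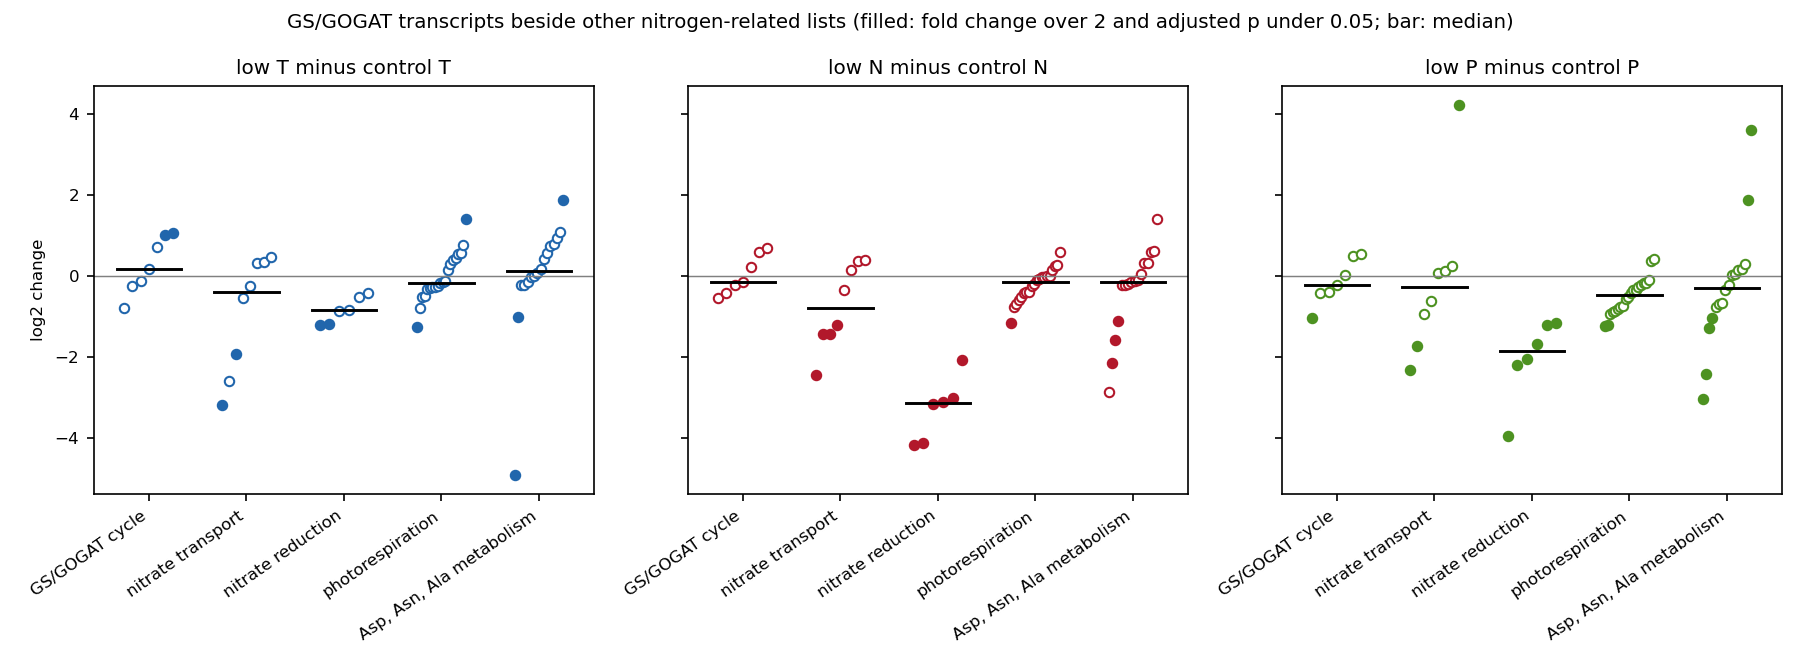
Log2 change of every transcript in 5 lists of the study's pathway table (x axis) under the 3 stresses (panels); filled points were called and bars are medians. The 7 GS/GOGAT members stay between -1.03 and 1.06, while nitrate reduction has medians of -0.85, -3.13 and -1.86.

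Markers of leaf cell types had mostly negative log2 changes on the percentile scale. Both mesophyll markers had negative log2 changes in all 3 experiments, with medians of -0.25 under low T, -0.96 under low N and -0.88 under low P, and 0, 1 and 1 of them were called lower. Of all tested probes 14.4%, 5.8% and 11.2% were called in either direction, and 3.01% were called lower under low P. Under low T neither passed the adjusted p alone, and the change of the pair was positive with scaling on all spike-in probes (median 0.19). Under low P 1 of the 2 had a positive change on both spike-in scales, while under low N both stayed negative there. The mean level of the pair lay at 5.12 to 5.45 in low T against 5.38 to 5.92 in control T leaves, at 3.86 to 4.48 in low N against 4.95 to 5.40 in control N leaves, and at 3.43 to 4.35 in low P against 3.96 to 5.18 in control P leaves. All 4 bundle sheath markers had negative changes in all 3 experiments, with medians of -0.47, -0.52 and -1.14, and 2 of the 4 were called lower under low P, beside 3.01% of all tested probes. On the spike-in scales 2 of the 4 had a positive change under low N and 1 of the 4 under low T and under low P. Their mean level lay at 5.93 to 6.47 in low T against 6.57 to 6.97 in control T leaves, at 5.61 to 6.20 in low N against 6.34 to 6.68 in control N leaves, and at 5.18 to 5.83 in low P against 6.21 to 6.63 in control P leaves. In homogenised leaf, fewer cells of a type and less RNA per cell cannot be told apart, and the part of these markers in the changes of the members was not tested. Of the 4 senescence markers that are no members, 1 was called higher and 1 lower under low T, 1 higher under low N and 2 higher under low P, beside 14.4%, 5.8% and 11.2% of all tested probes called. Chloroplastic GS itself stands in that marker list. Of the 26 photosystem transcripts, all 26 had a negative change under low T (median -0.62, 15 lower at the adjusted p alone, 3 called), 22 under low N (median -0.18) and 2 under low P (median 0.16, 6 higher at the adjusted p alone, 2 called). Among all tested probes, 31.1% passed the adjusted p alone in either direction under low T and 14.4% were called. Under low P 20.9% passed it in the higher direction and 11.2% were called in either. With quantile normalization 23 of the 26 were negative under low T and 5 under low N, and with scaling on all spike-in probes 20 and 1. Of 7 chlorophyll degradation transcripts 1 was called higher and 1 lower under low T, beside 14.4% of all tested probes, with medians of -0.37 in low T, 0.21 in low N and -0.16 in low P leaves. The part of these lists in the changes of the members was not tested.

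For each member the 3 most similar transcripts were taken from the 852 others of the study's pathway table, by Pearson correlation of the log2 values over the 24 arrays after the mean of each experiment was subtracted. This is a description over arrays that share experiment and scaling. Chloroplastic GS was most like the ribosomal protein transcripts GRMZM2G028216 (r = 0.88, 23 arrays) and GRMZM2G153476 (0.82) and the dicarboxylate transporter GRMZM2G383088 (0.82), and the correlations within groups were 0.87, 0.79 and 0.79, close to those over all arrays. GOGAT GRMZM2G036609 behaved likewise, with the phosphoenolpyruvate/phosphate translocator GRMZM2G066413 (0.92, within groups 0.88) and the chloroplast-targeted beta-amylases GRMZM2G007939 (0.87, within groups 0.85) and GRMZM2G035749 (0.85, within groups 0.83). The NADH-dependent GOGAT was most like the aspartyl protease GRMZM2G153523 (0.90), the cathepsin L cysteine proteinase GRMZM2G010435 of the senescence marker list (0.88) and the cellulose synthase GRMZM2G111642 (0.87), and here the correlations within groups were only 0.36, 0.15 and 0.43. GRMZM2G024104 was most like a mitochondrial serine hydroxymethyltransferase of photorespiration, GRMZM2G078143 (0.90), the aspartate aminotransferase GRMZM2G094712 (0.85) and the ribosomal protein GRMZM2G030016 (0.85), with correlations within groups of 0.27, -0.05 and 0.20.

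The other cytosolic GS forms had different partners. GRMZM2G050514 was most like the glucose-6-phosphate dehydrogenase GRMZM2G177077 (0.84), the cystathionine beta-synthase-related GRMZM2G104237 (0.82) and the alpha-amylase AC207628.4_FG006 (0.81). GRMZM2G036464 was most like the autophagy-related GRMZM2G112278 (0.79) and the ribosomal proteins GRMZM2G134107 (0.76) and GRMZM2G081180 (0.73). GRMZM2G386046 was most like the serine carboxypeptidase GRMZM2G104484 (0.81), the multicopper oxidase GRMZM2G054050 (0.72) and the serine carboxypeptidase GRMZM2G408038 (0.71). Among the members themselves the highest correlations were 0.61 between chloroplastic GS and NADH-dependent GOGAT and 0.60 between GRMZM2G050514 and GRMZM2G036609, and the lowest was -0.58 between GRMZM2G386046 and NADH-dependent GOGAT.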

How the data were processed

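Each deposited scanner file gives the spot intensity of 1 array, background-subtracted by Agilent Feature Extraction and left by the authors without normalization between arrays. The deposited series table holds log2 values that the authors scaled to the 75th percentile and centred on the median of each probe; it served as an alternative. Here, log2 intensity minus the 75th percentile of the array was used, outlier-flagged spots were left out, and 31507 of 41780 transcript probes, those with 1 or more groups in which all 4 arrays were well above background, were tested with limma 3.58.1 in R 4.3.3 (lmFit, eBayes, Benjamini-Hochberg over all tested probes). Adjusted p-values are from limma. The number of arrays limits the precision. Normexp (offset 50) used the median signal, since the mean signal planned for it was not among the columns used here. In tests on simulated data with 200 changed probes, 77% of probes changed by a log2 of 2 passed in the low T comparison, 75% in low N and 84% in low P, and of those changed by a log2 of 1, 32%, 30% and 66% (31507 probes each). In the data themselves 31.1%, 11.1% and 41.1% of all tested probes passed. The adjusted p depends on that share, so the simulated rates do not give the power of the tests above. After group means were removed, arrays with the same replicate number correlated at 0.189 to 0.424 in the low T and 0.175 to 0.362 in the low N experiment. On these correlations alone they were taken as paired in the replicate block, since the labels do not say what a number marks. That block was an alternative, and the main fits held no pairing and no block. Arrays with different numbers correlated at -0.407 to 0.413 and -0.397 to 0.347, with positive values within replicates 1 and 2 and within replicates 3 and 4 and negative ones between, so that single numbers cannot be told apart from these pairs of replicates. Named were the 7 members, the second probe of 1 locus, the 3 most similar transcripts of each member and members of the nitrate reduction list. Members, lists and comparisons were chosen with earlier results of these data known. Names come from the study's tables. A RefSeq gene table matched 5 of the 7 loci and gave no coordinates. No sequence was used. The files held 0 columns of other samples.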

Additional observations from a re-analysis of the deposited data

Results flagged for a closer look

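In groups of 4 arrays, a single array far from the other 3 was looked for among the 7 members and the second chloroplastic GS probe, in 48 groups of values, of which chance marks about 1 in 20. Only 2 were found. Cytosolic GS GRMZM2G386046 stood at -2.57 on low P replicate 1, against -3.77 to -3.65 on the other low P arrays, and the array is 1 of the 2 with more probes above background than the rest. The second chloroplastic GS probe OptiV1S23788 stood at -4.69 on control P replicate 3, against -5.14 to -5.10 on the other control P arrays, which is still below every low P array.

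Of 21 differences between stress responses, 6 passed the limma test, with GRMZM2G024104 at 1.14 (low T minus low N) and 1.42 (low T minus low P), GRMZM2G050514 at 0.78, GRMZM2G036464 at 0.57 and NADH-dependent GOGAT GRMZM2G085078 at 0.52 (all low T minus low P), and GRMZM2G036464 at 0.63 (low N minus low P). GRMZM2G024104 also changed in opposite directions under low T and low P, at 1.00 and -0.42, but the low P sign turned with 1 of the spike-in scalings.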

How the results depend on the processing

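With 2, 0 and 1 members called under low T, low N and low P, normexp background correction left 2, 0 and 0, scaling on all spike-in probes 3, 0 and 0, scaling on the 7 spike-in probes above background 2, 1 and 1 (the low P call then being NADH-dependent GOGAT, not GRMZM2G050514), the adjusted p alone 3, 2 and 4, and the second probe in place of the first for chloroplastic GS 2, 0 and 2. Beside these counts, 14.4%, 5.8% and 11.2% of all tested probes were called in the main fits and 5.19%, 3.75% and 5.11% with normexp. On all spike-in probes the shares were 19.7%, 5.5% and 15%, and on the 7 spike-in probes 14.7%, 9.91% and 22.4%. At the adjusted p alone they were 31.1%, 11.1% and 41.1%. Quantile normalization, the deposited table, both other filters, 1 fit over 24 arrays, slide as a block and the replicate block kept 2, 0 and 1, and slide as a block could not be fitted for low P. The replicate block changed no call at both limits; in low P the arrays share only a number, with correlations of -0.104 to 0.0452. Leaving out 1 array gave 1 to 2 called members under low T, 0 to 0 under low N and 0 to 1 under low P. Of differences between stresses, 1, 4 and 1 members passed (low T minus low N, low T minus low P, low N minus low P), 1, 1 and 0 with normexp and 0, 1 and 0 on the 7 spike-in probes, and 1 to 2, 3 to 5 and 1 to 2 with 1 array left out. Between control T and control N 2 members were called, 1 with normexp, 2 with quantile normalization (GRMZM2G036464 in place of NADH-dependent GOGAT) and 1 to 3 with 1 array left out. The other control pairs stayed at 1 and 0. For left-out arrays, differences between stresses and differences between controls, the share of all probes was taken with the main fit only. Signs turned for changes that were small or not called: GRMZM2G386046 under low P was -0.38 with normexp, -0.18 with quantile normalization and -0.27 to 0.13 with 1 array left out, and GRMZM2G036609 under low T was 0.0765 with quantile normalization and -0.26 to 0.0399 with 1 array left out. On all spike-in probes GRMZM2G050514 was 0.18 under low T and 0.10 under low N, GRMZM2G036609 0.31 under low T and 0.0197 under low P, and GRMZM2G024104 0.39 and GRMZM2G386046 0.30 under low N. On the 7 spike-in probes GRMZM2G036609 was 0.0934, 0.0188 and 0.30 under low T, low N and low P, GRMZM2G024104 0.43 under low N and 0.10 under low P, GRMZM2G050514 0.14 and GRMZM2G386046 0.34 under low N, and GRMZM2G036464 0.12 under low P. GRMZM2G024104 under low N was 0.030 with slide as a random block. The causes were not tested, beyond the shift of the median of all probes that the spike-in scalings bring. Spike-in scaling was not run for the comparisons of controls, and dim signal limits GRMZM2G386046 and the second chloroplastic GS probe.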
